A study of Mus musculus with 12 samples.

Results

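The Hox genes were taken as every gene whose symbol was Hoxa, Hoxb, Hoxc or Hoxd followed by a number, which gave 39 of the 20325 genes in the RNA-seq tables, and 38 of these are described. The Hoxa cluster held 10 of the 38, the Hoxb cluster 10, the Hoxc cluster 9 and the Hoxd cluster 9. The cells were a mouse pre-iPSC line, a line of cells stalled on the way from somatic cell to iPSC. The study picked such lines as colonies after retroviral Oct4, Sox2, c-Myc and Klf4 in embryonic fibroblasts carrying a Nanog-GFP reporter. It also derived lines from astrocytes, and states that fibroblasts and astrocytes used for such lines held the factors in a single cassette. The labels do not say which line was sequenced. Pre-iPSCs, which were maintained on irradiated feeder cells and treated without them, received the vehicle DMSO, AA (ascorbic acid, 50 µg/ml), 2i (MEK inhibitor PD0325901 at 1 µM and GSK inhibitor CHIR99021 at 3 µM) or AA+2i for 48 h in serum-containing embryonic stem cell medium. Each condition had 3 libraries, lettered A, B and C and described as biological replicates, which made 12 libraries.

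Hox genes encode homeodomain transcription factors that give cells of the embryo their position along the head-to-tail axis and, for the high-numbered genes of the Hoxa and Hoxd clusters, along the limb. They lie side by side in the genome in the order of their number. Genes with the same number in different clusters, called paralogues, encode the most similar proteins, and low numbers act towards the head and high numbers towards the tail. In embryonic stem cells the clusters are known to be silenced by Polycomb complexes, whereas fibroblasts keep the Hox genes of the body site that they came from.

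In the mm9 genome the Hoxa genes described ran on the minus strand of chromosome 6 from 52112350 to 52210874, and the other 3 clusters ran on plus strands. Hoxb lay on chromosome 11 from 96055630 to 96229570, Hoxc on chromosome 15 from 102751534 to 102867274 and Hoxd on chromosome 2 from 74506367 to 74603200. Levels were given in TPM, which divides counts by transcript length and scales each library to the same total, so that different genes can be compared, and conditions were compared with edgeR's quasi-likelihood test on the expected counts of the 13400 genes that had 10 or more counts in 3 or more libraries.

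Pre-iPSCs expressed the Hoxa and Hoxd clusters and little of Hoxb and Hoxc. In DMSO the summed level was 68.0 ± 18.0 TPM for Hoxa and 101 ± 19.6 TPM for Hoxd (SD, n = 3), against 3.30 ± 0.591 TPM for Hoxb and 4.89 ± 1.03 TPM for Hoxc. Over the 12 libraries 17 genes had a mean of at least 1 TPM, of which 9 belonged to Hoxa, 6 to Hoxd and 1 each to Hoxb and Hoxc. The single Hoxb and Hoxc genes at this level, Hoxb4 and Hoxc4, both belonged to paralogue group 4. Hoxb4 measured 1.63 to 2.86 TPM and Hoxc4 1.72 to 4.42 TPM over the 12 libraries. With Hoxa4 (2.52 to 6.88 TPM) and Hoxd4 (8.40 to 36.69 TPM), group 4 was expressed from every cluster. None of the 8 Hoxb genes with too few counts for a test exceeded 0.30 TPM in any library.

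**Figure D1:**
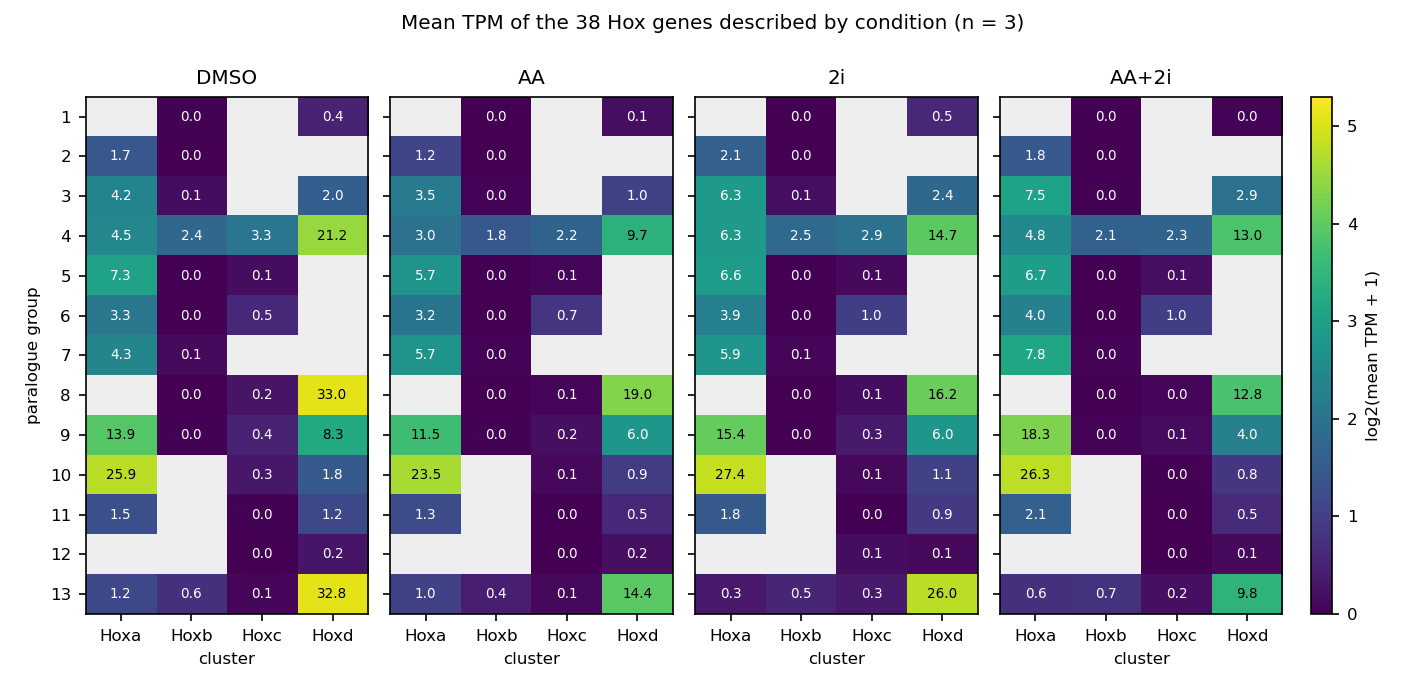
Mean TPM over 3 libraries of each Hox gene, with the cluster on the horizontal axis, the paralogue group from 1 to 13 on the vertical axis and 1 panel for each condition; colour gives log2(mean TPM + 1), the printed number gives the mean TPM and grey marks a number that the cluster does not have or that is not shown. Levels over 10 TPM stand only in the Hoxa and Hoxd columns, and paralogue group 4 is the row with more than 1 TPM in every cluster.

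Of the 38 genes, 21 had enough counts to be tested, made up of 10 Hoxa genes, 7 Hoxd genes, Hoxb4, Hoxb13, Hoxc4 and Hoxc6. Of these, 16 reached 10 counts in all 12 libraries. The 17 genes that were not tested were 8 of Hoxb, 7 of Hoxc, Hoxd1 and Hoxd12, and none of them had more than 20 counts or 0.71 TPM in any library. Hoxb2 and Hoxb6 had 0 counts everywhere, which at a limit of 3 counts allows up to 0.0552 CPM (counts scaled to the library total, with no regard to length) in the deepest library and 0.186 CPM in the shallowest. Library totals ranged from 16173322 (DMSO C) to 54392719 counts (AA B).

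The order of levels in DMSO was led by Hoxd8 (33.0 ± 7.79 TPM), Hoxd13 (32.8 ± 11.7 TPM), Hoxa10 (25.9 ± 4.78 TPM), Hoxd4 (21.2 ± 13.6 TPM) and Hoxa9 (13.9 ± 7.87 TPM), and each neighbouring pair among these 5 differed by less than the larger of its SDs. Neither high nor low numbers ruled the pattern. Within Hoxd, Hoxd13 at the end of the cluster and Hoxd8 in its middle were high, whereas Hoxd10 (1.36 to 2.41 TPM in DMSO), Hoxd11 (0.92 to 1.38 TPM) and Hoxd12 (0.15 to 0.36 TPM), which lie between them, were low. Hoxd9, which also lies between them, was intermediate at 7.71 to 8.92 TPM in DMSO. Hoxd8 and Hoxd13 together made up 65.8 ± 19.5 TPM in DMSO and the other 7 Hoxd genes 35.2 ± 15.3 TPM. Within Hoxa, Hoxa9 and Hoxa10 were the most abundant, and Hoxa13, which acts with Hoxd13 in the distal limb, stayed between 0.15 and 1.62 TPM over the 12 libraries.

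On the TPM scale Hoxd was the cluster whose summed level was furthest from DMSO in each of the 3 treatments, although with CPM in place of TPM Hoxa was further from DMSO with 2i (log2 ratio 0.39, against -0.32 for Hoxd). Its summed level in DMSO was 112.3, 112.4 and 78.34 TPM in libraries A, B and C. With AA it was 68.11, 46.94 and 40.49 TPM, with 2i 77.99, 66.72 and 59.03 TPM, and with AA+2i 42.15, 48.63 and 41.11 TPM. Every AA, 2i and AA+2i library lay below every DMSO library, with 2i A just under DMSO C. The mean was 51.9 ± 14.4 TPM with AA, 67.9 ± 9.54 TPM with 2i and 44.0 ± 4.08 TPM with AA+2i (SD). This gave log2 ratios over DMSO of -0.96, -0.57 and -1.20. On leaving out 1 letter they ranged from -1.13 to -0.81, from -0.63 to -0.48 and from -1.31 to -1.09. Since TPM values of a library share a fixed total, the median of all tested genes itself moved by -0.03, -0.16 and -0.17 on the log2(mean TPM + 1) scale in the same comparisons. Without overlap, 4.13%, 14.7% and 22.5% of all tested genes also lay below DMSO in TPM with AA, 2i and AA+2i. Within Hoxd, both parts overlapped with DMSO when 2i was given alone. Hoxd8 and Hoxd13 together reached 53.02 TPM there (DMSO 50.22 to 87.63 TPM). The other 7 genes reached 26.82 TPM with 2i and 25.57 TPM with AA+2i (DMSO 24.67 to 52.76 TPM). With AA, and for Hoxd8 and Hoxd13 with AA+2i, the parts did not overlap with DMSO.

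The summed Hoxa level did not follow Hoxd. It was 57.48, 88.8 and 57.65 TPM in DMSO, 46.28, 66.3 and 66.31 TPM with AA, 62.76, 70.91 and 94.45 TPM with 2i, and 77.96, 71.6 and 89.64 TPM with AA+2i. The DMSO range overlapped each of the other 3. Hoxd made up 57.1 ± 5.03% of the TPM of the 38 genes in DMSO and 33.8 ± 4.26% with AA+2i, and Hoxa 38.3 ± 5.38% and 61.0 ± 4.36%. In AA and 2i libraries the Hoxd share was 44.1 ± 11.05% and 44.9 ± 7.87%. No test was made of these sums, because the genes in them were a chosen list.

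**Figure D2:**
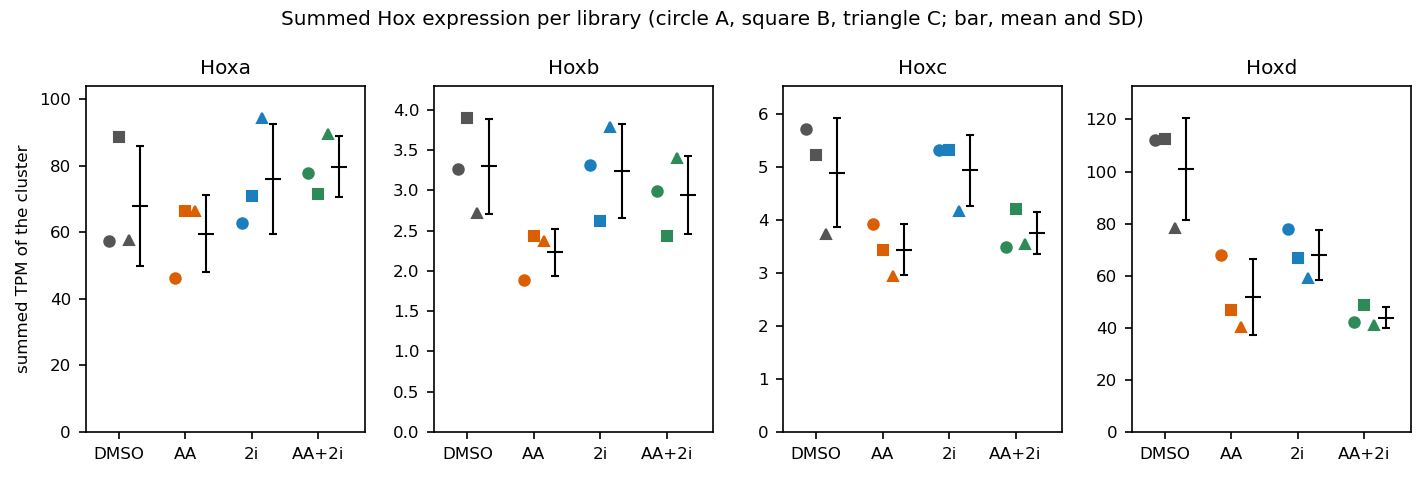
Summed TPM of each Hox cluster, with the condition on the horizontal axis and a vertical axis that starts at 0 in each panel but differs in scale; each symbol is 1 library and the bar gives the mean and SD of 3. All 3 treated groups lie below the DMSO range of 78.34 to 112.4 TPM for Hoxd, 2i A at 77.99 TPM only just. The Hoxa groups overlap with DMSO.

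Of the Hox genes that passed the test, Hoxd13 had the largest fold change. It encodes the most tail-ward Hoxd factor and is best known for patterning digits and the genital tract. It measured 45.97, 28.81 and 23.67 TPM in DMSO, 23.30, 11.51 and 8.38 TPM with AA, 32.47, 26.05 and 19.60 TPM with 2i, and 10.75, 12.08 and 6.66 TPM with AA+2i. Every library with AA, alone or combined, was below every DMSO library, AA A (23.30 TPM) only just under DMSO C (23.67 TPM), whereas the 2i libraries overlapped with DMSO. Of all tested genes, 4.13% lay below DMSO without overlap with AA and 22.5% with AA+2i. Hoxd13 fell in AA+2i relative to DMSO by 1.57 ± 0.38 on the log2 scale (SE; edgeR adjusted p = 0.029). With AA alone the log2 fold change was -1.20 ± 0.38 (edgeR adjusted p = 0.226) and with 2i alone -0.17 ± 0.37 (edgeR adjusted p = 0.814). Between AA+2i and 2i the log2 fold change was -1.39 ± 0.38 (edgeR adjusted p = 0.131), and between AA+2i and AA it was -0.37 ± 0.37 (edgeR adjusted p = 0.649).

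Hoxd8, a factor of the trunk region, was the other Hox gene that fell with AA+2i, as 4.41% of all tested genes did. It measured 41.66, 30.82 and 26.55 TPM in DMSO, 26.62, 16.07 and 14.38 TPM with AA, 20.55, 15.53 and 12.61 TPM with 2i, and 12.80, 16.74 and 8.88 TPM with AA+2i. The 2i and AA+2i libraries were all below DMSO, and the highest AA library just entered the DMSO range. Its log2 fold change was -1.19 ± 0.30 with AA+2i (edgeR adjusted p = 0.0334), -0.79 ± 0.30 with AA (edgeR adjusted p = 0.349) and -0.86 ± 0.30 with 2i (edgeR adjusted p = 0.156). Thus the lower values of Hoxd8 stood in all 3 treatments, while those of Hoxd13 stood mainly where AA was present. Of these differences from DMSO only those with AA+2i passed, and the 2 genes were not compared with each other. The interaction of AA and 2i was -0.20 ± 0.53 for Hoxd13 and 0.46 ± 0.42 for Hoxd8, each with an edgeR adjusted p of 1.

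Both Hoxd calls depended on single libraries. The Hoxd13 call was lost on leaving out DMSO A, 2i B or any 1 of the AA+2i libraries, with edgeR adjusted p-values from 0.0501 (without 2i B) to 0.128 (without AA+2i C). The Hoxd8 call was lost on leaving out DMSO A, AA B, 2i B or any 1 of the AA+2i libraries, with values from 0.0503 (without AA B) to 0.143 (without AA+2i C). The direction stayed in every one of these fits, with log2 fold changes from -1.73 to -1.19 for Hoxd13 without each of the DMSO libraries and from -1.31 to -0.94 for Hoxd8.

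The 250 bases before the annotated start of both genes are shown because these were the Hox genes that fell together with AA+2i. Sequences are from RefSeq (GRCm38.p6), read 5′ to 3′ on the plus strand of chromosome 2, with CpG dinucleotides, the sites of DNA methylation, in capitals. They span chr2:74667975-74668224 for Hoxd13 and chr2:74704365-74704614 for Hoxd8.
Hoxd13: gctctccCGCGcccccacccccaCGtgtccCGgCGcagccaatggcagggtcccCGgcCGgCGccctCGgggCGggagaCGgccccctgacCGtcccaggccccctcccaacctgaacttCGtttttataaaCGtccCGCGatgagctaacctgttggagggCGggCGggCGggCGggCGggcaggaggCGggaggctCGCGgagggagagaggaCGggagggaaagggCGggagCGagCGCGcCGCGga
Hoxd8: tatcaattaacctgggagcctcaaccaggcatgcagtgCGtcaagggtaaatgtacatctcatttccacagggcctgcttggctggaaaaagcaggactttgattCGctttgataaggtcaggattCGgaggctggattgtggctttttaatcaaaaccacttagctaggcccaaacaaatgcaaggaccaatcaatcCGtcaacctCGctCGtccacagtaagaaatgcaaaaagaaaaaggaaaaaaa
The pair differed in CpG content. The Hoxd13 sequence held 31 CpGs and 74.4% G and C, and 5.19% of all 32841 RefSeq promoters held at least as many CpGs, whereas Hoxd8 held 44.4% G and C and 6 CpGs, the median of all promoters. Hoxd8 was the single one of 24 Hox promoters (of 22 genes) with the letters CTTTGAT, read by TCF/LEF factors of the Wnt pathway, which 3.21% of all promoters held. Hoxd13 held the TATA letters TATAAA, present in 12.4% of all promoters. Both held CCAAT, present in 33.9%. Neither held TGATTNAT, read by Pbx and Hox proteins together and present in 2.83%, or TTTATG, read by Cdx proteins and present in 10.8%. All motifs were searched on both strands, and a match of letters is not evidence of binding.

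Hoxd4, a gene of the hindbrain and neck region, was expressed at 11.15, 36.69 and 15.75 TPM in DMSO, 8.40, 10.24 and 10.32 TPM with AA, 12.56, 14.93 and 16.68 TPM with 2i and 11.05, 12.78 and 15.07 TPM with AA+2i. The DMSO B library stood far above all others, and the AA libraries were below every DMSO library. The log2 fold change was -1.05 ± 0.36 with AA (edgeR adjusted p = 0.282), -0.27 ± 0.35 with 2i (edgeR adjusted p = 0.704) and -0.43 ± 0.35 with AA+2i (edgeR adjusted p = 0.42). Without DMSO B the value with AA was -0.53 (edgeR adjusted p = 0.665), and the last 2 turned to 0.24 and 0.09.

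Of the remaining Hoxd genes, Hoxd9 measured 7.71 to 8.92 TPM in DMSO and 3.63 to 4.38 TPM with AA+2i, and did not pass edgeR's test (-0.85 ± 0.25, adjusted p = 0.0639). Hoxd10 measured 1.36 to 2.41 TPM in DMSO and 0.46 to 0.95 TPM with AA+2i, and Hoxd11 0.92 to 1.38 and 0.30 to 0.84 TPM, neither passing by edgeR (adjusted p = 0.0603 and 0.326). DESeq2 and limma called Hoxd9 and Hoxd10 lower with AA+2i. Hoxd3, at the head-ward side of the cluster, was the exception, with 1.01, 3.73 and 1.24 TPM in DMSO and 2.37, 1.70 and 4.76 TPM with AA+2i. The groups of Hoxd3 overlapped.

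Hoxa3, a gene of the neck and pharyngeal arches, measured 5.20, 4.90 and 2.60 TPM in DMSO, 3.94, 3.31 and 3.29 TPM with AA, 5.44, 5.85 and 7.71 TPM with 2i, and 7.59, 6.10 and 8.70 TPM with AA+2i. All libraries with 2i, alone or combined, exceeded all libraries without it, 2i A (5.44 TPM) only just exceeding DMSO A (5.20 TPM). This split was read after the values were seen, and the share of all genes with such a split was not counted. The G and C content of Hoxa3 predicted deviations from its mean over the 12 libraries. These also differed, from -0.80 in DMSO A to 0.47 in AA+2i C (log2 scale). Hoxa3 was higher with AA+2i than with AA by 1.29 ± 0.31 on the log2 scale (edgeR adjusted p = 0.0315). Against DMSO the log2 fold change was 1.05 ± 0.31 with AA+2i (edgeR adjusted p = 0.0608), 0.79 ± 0.31 with 2i (edgeR adjusted p = 0.221) and -0.24 ± 0.31 with AA (edgeR adjusted p = 0.951). The call against AA was lost without any 1 of the AA libraries, 2i B, AA+2i A or AA+2i C, with edgeR adjusted p-values from 0.0558 (without 2i B) to 0.133 (without AA+2i C). The 250 bases before an annotated start of Hoxa3, shown as for the Hoxd genes, span chr6:52213068-52213317 on the minus strand and hold 18 CpGs and none of the 5 motifs. This start is a distant one, upstream of the stretches taken for Hoxa5 (from 52204588) and Hoxa6 (from 52208673). No Hoxa3 start nearer to Hoxa2 was examined.
Hoxa3: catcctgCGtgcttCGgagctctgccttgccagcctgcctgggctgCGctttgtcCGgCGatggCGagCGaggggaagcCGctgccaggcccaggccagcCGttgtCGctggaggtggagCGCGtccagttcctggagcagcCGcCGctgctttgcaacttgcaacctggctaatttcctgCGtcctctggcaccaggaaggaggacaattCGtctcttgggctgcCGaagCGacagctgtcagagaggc

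Hoxa10 and Hoxa9, which act in the trunk, limb and uterus and are widely expressed in blood progenitors, were the most abundant Hoxa genes. Hoxa10 measured 24.18, 31.31 and 22.22 TPM in DMSO, 21.18, 24.07 and 25.22 TPM with AA, 25.18, 24.58 and 32.46 TPM with 2i, and 26.08, 27.09 and 25.62 TPM with AA+2i. All groups overlapped with DMSO, and its log2 fold changes were -0.10 ± 0.21, 0.30 ± 0.21 and 0.26 ± 0.21 with AA, 2i and AA+2i (edgeR adjusted p = 0.959, 0.515 and 0.401). Hoxa9 varied widely within conditions, at 6.37, 22.08 and 13.27 TPM in DMSO, 4.38, 15.49 and 14.75 TPM with AA, 8.96, 15.24 and 22.14 TPM with 2i, and 16.18, 14.14 and 24.55 TPM with AA+2i. In DMSO, AA and 2i the A library was the lowest. Its log2 fold changes were -0.18 ± 0.56, 0.40 ± 0.56 and 0.68 ± 0.56 (edgeR adjusted p = 0.966, 0.722 and 0.421). Hoxa5, a gene of the lower neck and upper trunk that also acts in lung development, measured 7.98, 9.52 and 4.51 TPM in DMSO, 6.06, 6.6 and 4.41 TPM with AA, 6.5, 6.44 and 6.94 TPM with 2i, and 5.44, 8.36 and 6.24 TPM with AA+2i. The 2i and AA+2i libraries all lay within the DMSO range, and AA C was just below it. The log2 fold changes of Hoxa5 were -0.32 ± 0.28, 0.06 ± 0.28 and 0.09 ± 0.28 (edgeR adjusted p = 0.928, 0.913 and 0.831), and the last 2 turned to -0.08 and -0.08 with limma on log2(TPM + 1).

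**Figure D3:**
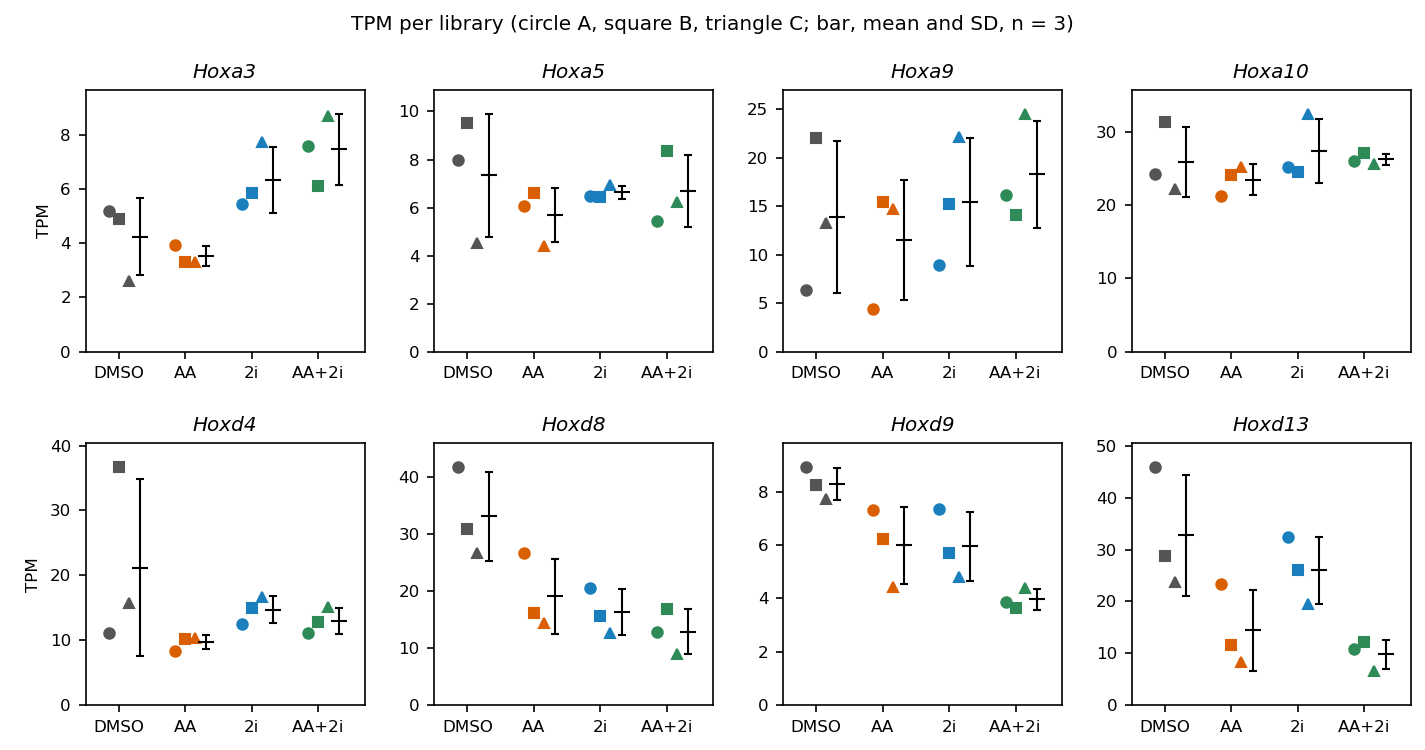
TPM in each library of the 7 Hox genes described with tests and of Hoxd9, with the condition on the horizontal axis and a vertical axis that starts at 0 and differs in scale; bars give the mean and SD of 3 libraries. Hoxd13 is lower in the AA and AA+2i libraries (6.66 to 23.30 TPM) than in DMSO (23.67 to 45.97 TPM). The Hoxd8 mean is lower in all treated groups. Hoxa3 is higher in the 2i and AA+2i libraries (5.44 to 8.70 TPM) than in the DMSO and AA libraries (2.60 to 5.20 TPM). Hoxa10 stays between 21.18 and 32.46 TPM.

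Across the tested Hox genes, no gene passed in AA against DMSO, where 0.866% of all tested genes were called up and 0.47% down by edgeR. At an unadjusted p under 0.05, 4 of the 21 were lower (Hoxd4, Hoxd8, Hoxd10 and Hoxd13) and 0 higher, against 4.38% and 5.04% of all genes. DESeq2 and limma called none, beside 454 of 13400 genes by DESeq2 and 228 of 13399 by limma on log2(TPM + 1). All 7 tested Hoxd genes had a log2 fold change below 0 with AA, with a median of -0.96, and 2 of 10 Hoxa genes had one above 0, with a median of -0.18, beside 48.7% above 0 and a median of -0.01 over all genes. The TPM of 7 of the 21 genes lay below DMSO without overlap, where 4.13% of all genes did so, and for 0 genes above, where 5.36% did.

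In 2i against DMSO 0 of the 21 genes described passed by edgeR, beside 1.59% of all genes up and 2.83% down, and DESeq2 and limma called none of them. Of all genes, DESeq2 called 1099 of 13400 and limma on log2(TPM + 1) 620 of 13399. At an unadjusted p under 0.05, 3 were higher (Hoxa3, Hoxa4 and Hoxc6) and 2 lower (Hoxa13 and Hoxd8), beside 6.33% and 9.72% of all genes. The TPM of Hoxa3 and Hoxa4 lay above DMSO without overlap, where 5.19% of all genes did, and that of 4 (Hoxa13, Hoxd8, Hoxd9 and Hoxd10) below, where 14.7% did. The log2 fold change was above 0 for 9 of 10 Hoxa genes (median 0.45), with Hoxa13 as the exception at -1.87 ± 0.71 (edgeR adjusted p = 0.205), named after its values were seen, and for 1 of 7 Hoxd genes (median -0.30). Hoxa13 was at most 0.37 TPM in the 2i libraries. Over all genes 48.5% were above 0 and the median was -0.02.

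In AA+2i against DMSO 2 of 21 passed, both down (Hoxd8 and Hoxd13), beside 3.93% of all genes up and 4.41% down. DESeq2 called 2 up (Hoxa3 and Hoxa7) and 4 down (Hoxd8, Hoxd9, Hoxd10 and Hoxd13), and limma called the same 4 down and 0 up. The shares above are edgeR's. In both directions together, DESeq2 called 1879 of 13400 genes and limma on log2(TPM + 1) 1114 of 13399. Hoxa7, Hoxd9 and Hoxd10 are named after their values were seen. At an unadjusted p under 0.05, 3 were higher and 4 lower, beside 11.5% and 13.3% of all genes. Again 9 of 10 Hoxa genes were above 0 (median 0.38) and 6 of 7 Hoxd genes below (median -0.86), with Hoxd3 as the exception at 0.87 ± 0.51 (edgeR adjusted p = 0.293), also named after its values were seen. Over all genes 49.1% were above 0 and the median was -0.02. Non-overlapping lower TPM was found for 5 of 21 genes, a share of 23.8% that was close to the 22.5% of all genes. Hoxa3 was higher without overlap, 4.76% of the 21 genes beside 9.61% of all genes. These 3 comparisons share the DMSO libraries.

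In AA+2i against AA 1 of 21 passed (Hoxa3, up), beside 2.81% of all genes up and 3.29% down. At an unadjusted p under 0.05, 5 were higher and 0 lower, beside 7.72% and 9.31% of all genes, and the median log2 fold change was 0.70 over Hoxa and -0.07 over Hoxd. In AA+2i against 2i none passed by edgeR, beside 0.761% up and 0.149% down. At an unadjusted p under 0.05 the sole gene there was Hoxd13, which was lower, beside 5.93% of all genes higher and 3.6% lower. DESeq2 called Hoxd13 (adjusted p = 0.0189), beside 468 of 13400 genes in all. For the interaction of AA and 2i no Hox gene reached an unadjusted p of 0.05 by edgeR, beside 0.0149% of all genes called up and 0% down, and 1.68% and 0.627% at an unadjusted p under 0.05. DESeq2 called no Hox gene there, beside 26 of 13400 genes in all. Fold changes that stood for Hoxa above 0 and Hoxd below 0 were not tested against each other.

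**Figure D4:**
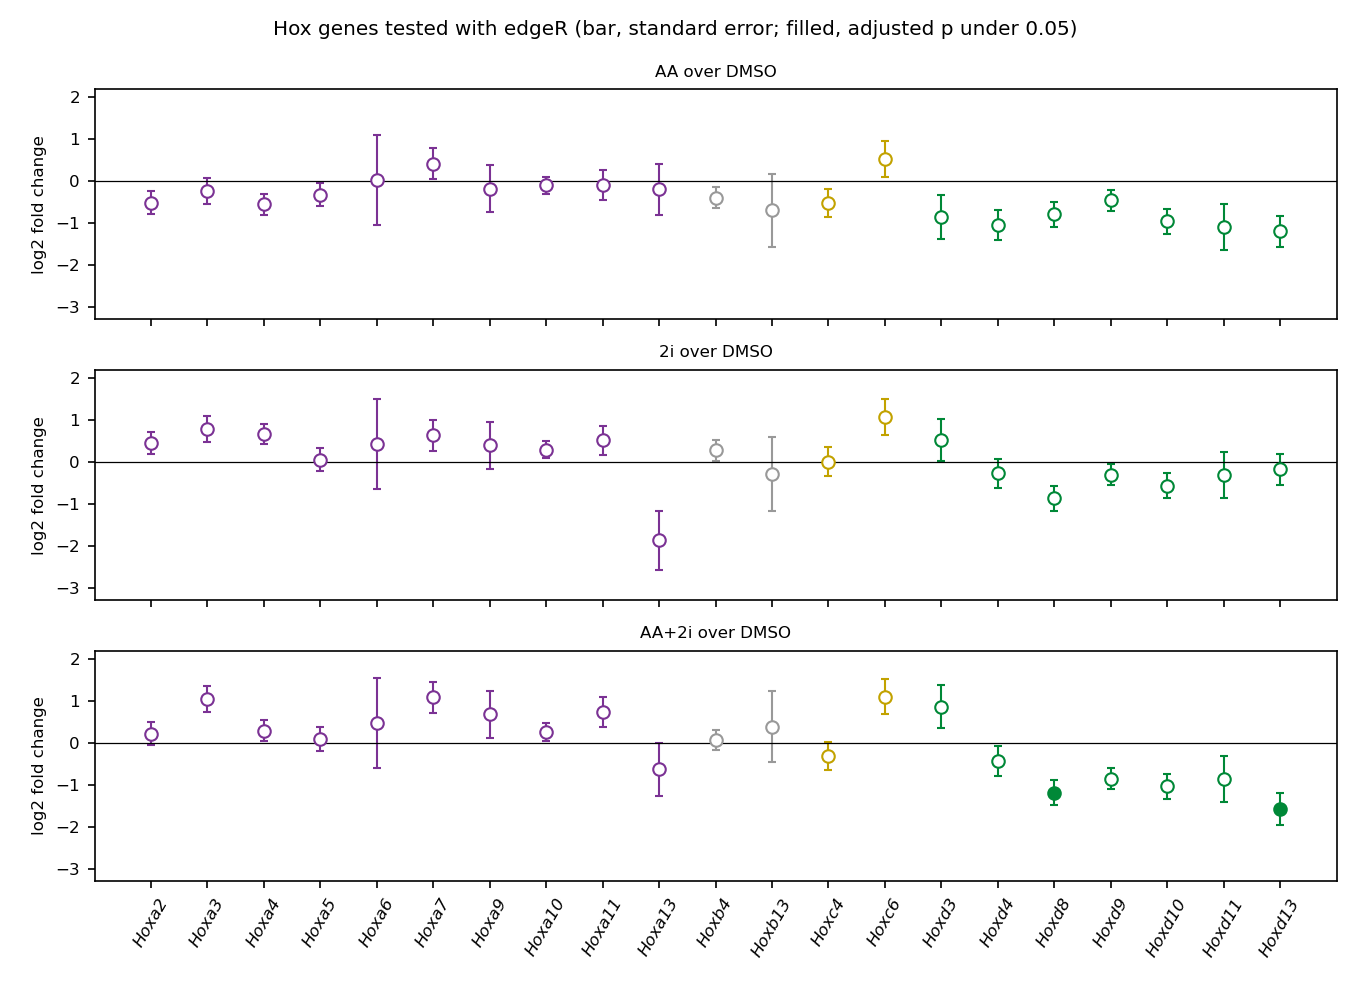
Log2 fold change over DMSO of 21 tested Hox genes in order of cluster and number, with 1 panel for each of AA, 2i and AA+2i; bars give the standard error, purple, grey, yellow and green mark Hoxa, Hoxb, Hoxc and Hoxd, and filled symbols passed edgeR's adjusted p of 0.05. The 7 Hoxd symbols lie below 0 with AA, and with AA+2i Hoxd13 (-1.57) and Hoxd8 (-1.19) are filled.

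Base composition moved with some of these values. Transcripts of the tested Hox genes had a median G and C content of 53.1% (47.4% to 60.8%), against 50.3% over all tested genes, and the libraries differed in how well they covered G and C rich transcripts. G and C content was used to predict how far a gene in a library deviates from its mean over the 12 libraries (log2 scale). For Hoxd8 this deviation was -0.96 in DMSO A and 0.57 in AA+2i C. For Hoxd13, the poorest in G and C at 47.4%, it was 0.34 and -0.25. Treatment differences that follow G and C content would be part of this dependence. With that dependence taken out of each library, the Hoxd13 log2 fold change was -1.34 ± 0.24 with AA+2i (edgeR adjusted p = 0.00238), -1.15 ± 0.23 with AA (0.0173) and -1.30 ± 0.24 for AA+2i against 2i (0.00951). Hoxd4 passed with AA at -1.14 ± 0.25 (0.0228), a fit that included DMSO B. Hoxd8 kept its AA+2i call at -1.88 ± 0.60 (0.0473). With the correction, calls over all 13400 genes also rose, from 179 to 546 with AA and from 1117 to 2621 with AA+2i. They rose from 122 to 618 for AA+2i against 2i and from 817 to 1993 for AA+2i against AA. The rise of Hoxa3 over AA no longer passed, at 0.94 ± 0.40 (0.148), and over DMSO its log2 fold change was 0.46 ± 0.40 with AA+2i (0.437) and 0.35 ± 0.40 with 2i (0.615).

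Expected counts need not be whole numbers, and they were more than 0.005 from one for Hoxa10 in all 12 libraries, for Hoxd4 in 9, for Hoxd13 and Hoxa5 in 8, for Hoxd8 and Hoxa9 in 5 and for Hoxa3 in 4. Which transcripts shared these reads was not examined. Counting did not use strand, and the gene records of Hoxa3 and Hoxd3 overlapped neighbouring Hox genes, so that sense and antisense or overlapping transcripts cannot be told apart. In bulk RNA, fewer expressing cells and less RNA per cell cannot be told apart either.

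The identity of the cells was checked with marker lists. Of 16 fibroblast and feeder markers 11 stayed under 3 TPM in every library, among them Lum, at 0 throughout. Thy1, the study's own fibroblast marker, measured 2.64 to 7.21 TPM in DMSO and 6.69 to 15.99 TPM with AA. It measured 0.54 to 1.68 TPM with 2i and 2.17 to 4.65 TPM with AA+2i. Fbn1 reached 10.44 TPM, Prrx1 3.96 TPM and Col5a2 3.00 TPM. The sum of the whole list without S100a4 was 18.49 to 32.26 TPM in DMSO, 20.31 to 27.22 with AA, 14.38 to 18.74 with 2i and 12.56 to 20.71 with AA+2i. S100a4 alone was 339.36 to 506.92 TPM in DMSO, 224.26 to 327.34 with AA, 36.65 to 48.25 with 2i and 25.18 to 36.77 TPM with AA+2i. The part of these markers in the Hox values was not tested. Epithelial markers summed to 147.8 to 233.8 TPM in DMSO and to 312.0 to 491.4 with AA, 162.0 to 213.8 with 2i and 451.4 to 629.1 TPM with AA+2i. Pluripotency markers summed to 186.7 to 315.4, 1672 to 2267, 125.8 to 170.3 and 864.8 to 1135 TPM in the same order. Dppa5a alone averaged 53.15, 1438, 23.43 and 673.7 TPM, so the sum does not stand for each of the 14 markers. Zfp42 had the same order of conditions, at 2.37, 15.83, 1.08 and 6.71 TPM. Nanog (4.41, 17.83, 6.08 and 36.58 TPM) and Tcfcp2l1 (8.98, 16.06, 35.58 and 53.57 TPM) were highest with AA+2i. The part of the pluripotency markers in the Hox values was not tested either.

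Genes that act with or on the Hox clusters were examined as lists, against a background in which at most 4.41% of all tested genes were called in 1 direction of a comparison with DMSO. Of 9 TALE genes, the Pbx, Meis and Pknox proteins that bind DNA together with Hox proteins, all were tested and none passed against DMSO. Among 19 Polycomb genes, Phc1, a component of Polycomb repressive complex 1, fell with 2i by 1.19 ± 0.23 and with AA+2i by 0.99 ± 0.23 on the log2 scale (edgeR adjusted p = 0.0155 and 0.0234). Phf19, which helps Polycomb repressive complex 2 onto chromatin, fell by 1.08 ± 0.27 and 1.07 ± 0.27 (edgeR adjusted p = 0.0465 and 0.0332). The other 17, the core subunits Ezh2, Eed and Suz12 included, did not pass in either direction. None of 12 tested trithorax and H3K27 demethylase genes, which oppose Polycomb, passed. At that background a count of 0 among 9 or 12 genes is no result about these lists.

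In the retinoic acid pathway, a main inducer of Hox genes in embryos, 11 of 17 genes were tested. With AA, Rdh10, which makes retinaldehyde, fell by 1.54 ± 0.21, and Crabp2, which carries retinoic acid into the nucleus, rose by 1.79 ± 0.34 (edgeR adjusted p = 0.00555 and 0.0296). With 2i, the retinoic acid degrading enzyme Cyp26a1 fell by 2.09 ± 0.52 (edgeR adjusted p = 0.0479). Aldh1a2, which makes retinoic acid, rose by 3.28 ± 0.65 (edgeR adjusted p = 0.0169), although it stayed at 0.39 to 0.77 TPM. With AA+2i, Crabp2 rose by 2.36 ± 0.34 (edgeR adjusted p = 0.00218).

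Of 6 Cdx and ParaHox genes, relatives of the Hox genes, 2 were tested. Gsx1 fell with 2i by 3.77 ± 0.70 and with AA+2i by 2.67 ± 0.63 (edgeR adjusted p = 0.012 and 0.0246), from a mean of 2.00 ± 1.06 TPM in DMSO. Cdx1, a Wnt target that activates Hox genes in the embryo, rose with AA+2i by 6.21 ± 1.57 (edgeR adjusted p = 0.0346) to 1.24 ± 1.34 TPM, a mean smaller than its SD. Since Cdx1 was at 0 in DMSO A and DMSO B and at 0.07 TPM in DMSO C, the size of this change is uncertain. Of 11 tested genes next to the clusters, Calcoco2 rose with AA+2i by 2.11 ± 0.49 (edgeR adjusted p = 0.0242), and none of the others passed.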

How the data were processed

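RNA of 12 libraries, made with the TruSeq kit, had been trimmed, clipped and quality filtered by the authors, aligned with Bowtie (Bowtie2 in the study's methods) to an mm9 reference limited to annotated RefSeq genes and quantified with RSEM 1.2.4 without strand. The deposited files hold expected counts and TPM per gene. Expected counts were rounded and compared with edgeR 4.0.16 (RLE factors, 1 mean per condition over all 12 libraries, Benjamini-Hochberg over 13400 genes, adjusted p under 0.05). The study's EB-seq test was not run. TPM was used for levels, for overlap between groups, for ratios of summed levels and for the limma alternatives, and 1 malformed TPM cell was left out. Fold changes were given for Hox genes that passed in a pairwise comparison and for the 6 with the highest mean TPM among the 38 described. Of the Hox genes 1, and of the companion lists 1 gene, is not reported here and stands in no count, sum or figure of members. The members and lists were chosen with earlier results of these data known. Alternatives used TMM factors, DESeq2 1.42.0, limma 3.58.1 on log2(TPM + 1) and log2(TPM + 0.1), other count filters, 2 groups only, a G and C correction (loess, span 0.4), a replicate block, and fits without each library or letter. On data simulated for AA against DMSO (13400 genes), edgeR found 8.33% of genes changed by 1 on the log2 scale and 70.7% of those changed by 2. Positions are from GENCODE annotation of mm9. SDs and standard errors reflect the spread between libraries, whereas the limit for a count of 0 covers counting error only, since reads were not tagged by molecule.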

Additional observations from a re-analysis of the deposited data

How the results depend on the processing

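Numbers of Hox genes called moved with the model more than fold changes did. In AA against DMSO the count of 0 became 1 with a replicate block, 2 with the G and C correction and 3 with both. Over all 13400 genes the calls rose from 179 to 594, 546 and 1445 in these fits. In 2i against DMSO the count of 0 became 2 with the block and 2 with the correction and block. Over all genes the calls rose from 592 to 1782 and 3293. In AA+2i against DMSO the count of 2 became 6 with DESeq2, 4 with limma at either pseudocount, 1 with the 2 groups only, 8 with the block (4 up: Hoxa3, Hoxa7, Hoxa11 and Hoxc6) and 6 with the correction and block. Over all genes 1117 calls became 1879 with DESeq2, 1114 and 1128 with limma (pseudocounts 1 and 0.1) and 601 with the 2 groups only. They became 4229 with the block and 4835 with the correction and block. Hoxd10 was among those called with DESeq2, limma, the block, the correction, both together and at least 10 counts in every library, and Hoxd9 with DESeq2, limma, the block and both together; Hoxa7, Hoxa11, Hoxc6, Hoxd9 and Hoxd10 are named after their values were seen. In AA+2i against AA the count of 1 became 3 with DESeq2, 0 with limma at either pseudocount, 0 with the 2 groups only, 4 with the block, 0 with the correction and 3 with both. Over all genes 817 calls became 1309, 814 and 829 (limma, pseudocounts 1 and 0.1), 447, 1992, 1993 and 3679. In AA+2i against 2i the count of 0 became 1 with DESeq2, the 2 groups only, the block, the correction and both, and the gene was Hoxd13 each time. Over all genes 122 calls became 468, 134, 606, 618 and 1518 in these fits. The cause of these moves was not tested. Beside the calls over all genes, the Hox counts are not read as results about Hox genes. Without single libraries or letters the counts ranged from 0 to 3 for AA+2i and from 0 to 1 for AA+2i against AA. Hoxd13 with AA+2i passed in 18 of 25 alternatives, with adjusted p from 0.00013 to 0.264, Hoxd8 in 15 (0.00245 to 0.234) and Hoxa3 against AA in 12 (0.00117 to 0.37).

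The letters were not taken to pair the libraries, because no source says so and not every same-letter pair deviated together: over 18 pairs the correlation of deviations ran from -0.588 to 0.894 with a mean of 0.401, and was over 0.1 in 15. As a hint from the data, 9 of 12 libraries correlated best with their own letter. With the replicate block, Hoxd13 passed with AA (adjusted p = 0.019) and against 2i (0.0117), Hoxd8 with 2i (0.0301) and Hoxa3 with AA+2i (0.0307). More of all genes passed in that fit too. The signs that turned belonged to small differences that were not called in the main fit. Among them, Hoxd4 with AA+2i was called lower with the correction and block (-0.66, edgeR adjusted p = 0.0461). On leaving out libraries the log2 fold change with AA ranged from -0.50 to 0.22 for Hoxa9 and from -0.23 to 0.01 for Hoxa10. With 2i it ranged from -0.24 to 0.23 for Hoxa5, -0.55 to 0.24 for Hoxd4 and -0.34 to 0.21 for Hoxd13. With AA+2i it ranged from -0.16 to 0.36 for Hoxa5 and from -0.77 to 0.15 for Hoxd4. Single values that turned were -0.24, -0.15 and -0.01 with 2i (without letter C, DMSO C or 2i C) and -0.16, -0.13 and -0.04 with AA+2i (without letter C, DMSO C or AA+2i B) for Hoxa5, 0.19 and 0.22 for Hoxa9 (without DMSO B or AA A), 0.01 for Hoxa10 (without letter A or AA A), 0.24 with 2i and 0.15 and 0.09 with AA+2i for Hoxd4 (without letter B or DMSO B), and 0.07 and 0.21 for Hoxd13 (without letter A or DMSO A). With limma on log2(TPM + 1) and log2(TPM + 0.1) Hoxa5 turned to -0.08 and -0.08 with 2i and to -0.08 and -0.09 with AA+2i.

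Log2 ratios of summed levels to DMSO moved with CPM in place of TPM to -0.32 for Hoxd with 2i and -0.94 for Hoxd with AA+2i. With the G and C curve taken out they moved to -0.67 for Hoxc and -1.59 for Hoxd with AA+2i. Without single letters they ranged from 0.03 to 0.54 for Hoxa with AA+2i, from -0.27 to 0.24 for Hoxb with 2i and from -0.40 to 0.09 for Hoxb with AA+2i. The 17 untested genes had at most 20 counts in any library, and none of them passed when no count filter was used.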
